A study of Sus scrofa with 4 samples.

Results

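The genes described here copy DNA, supply the nucleotides for it, and repair or check the copied strands. They were 57 genes listed by symbol, and 32 of them had a probeset with a single gene symbol on the porcine array, out of 6765 named genes in all. Each gene was read through its brightest probeset, the one with the highest mean log2 signal over the 4 arrays. Shallow and deep wounds had been made on the same 2 Duroc pigs, on the back, and biopsied at 20 weeks. Fibroblasts of the dermal cones were grown from the biopsies in DMEM/F12 medium with fetal bovine serum, and total RNA of confluent cultures was hybridized to the Affymetrix porcine array. There was 1 array per wound depth and pig, so 2 shallow and 2 deep arrays. No other treatment, genotype or unwounded control is in the labels, and what was done to both depths alike (wounding, culture, serum) is shared by all 4 arrays.

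DNA replication starts when origin recognition proteins load the MCM helicase onto DNA, a step called licensing. Kinases then recruit CDC45 and GINS, the helicase opens the double strand, and polymerases held on by the PCNA clamp copy it. Messenger RNA of many of these genes is made mainly as a cell enters S phase, so their level in a culture is widely read as a sign of how many cells are cycling, and fibroblasts at confluence usually cycle little.

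Of the 25 listed genes without a value here, MCM6, MCM7 and MCM10 belong to the helicase. GINS1 and GINS2 activate it, and CDC6, CDT1 and CDC7 act at origins. TK1, DUT and DTYMK act in nucleotide supply, and POLA1, POLD1, POLE and PRIM1 are polymerase or primase subunits. RFC2 and RFC4 load the clamp. BRCA2, MSH6, EXO1, BLM and UNG repair DNA, and CCNE1, CCNE2 and E2F1 drive entry into S phase. DUT and RFC2 appeared only in probesets that carry a second gene's symbol and were not read.

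The arrays differed in ways that touch every result below. Markers of epithelial cells stood high on the shallow array of pig 1: the summed signal of 8 such genes was 5832 there, against 201 for shallow pig 2, 293 for deep pig 1 and 132 for deep pig 2. On those 3 arrays 6, 5 and 7 of the 8 read below the highest control for an absent transcript; E-cadherin, CDH1, did so on all 3. Fibroblast markers were present on all 4 arrays, and the summed signal of 11 of them was 32501 and 38368 in shallow and 53439 and 76981 in deep. Endothelial markers summed to 740 on the shallow array of pig 1, 249 on that of pig 2, and 318 and 374 in deep. Most of this was PECAM1, at 601 and 152 in shallow and 223 and 281 in deep. Leukocyte and melanocyte or Schwann markers gave sums of at most 138 and 151 on any array. Smooth muscle and pericyte markers gave 719 and 1190 in shallow against 4780 and 3450 in deep, mostly from ACTG2, at 492 and 717 against 4269 and 2914. Of these 6 genes 4 were higher in deep in both pigs, while RGS5 and MCAM had opposite signs in the pigs. The signal ratio of the 3' to the 5' actin probesets, which rises when RNA is shortened, stood at 1.96 and 2.41 in shallow cultures but 3.28 and 6.10 in deep ones, although the labels report high integrity numbers for every RNA. Hybridization controls, added to every sample, had medians of 767 and 827 in shallow and 1005 and 2673 in deep. The part of these differences in the results was not tested. In bulk cultures, fewer cells of a type and less RNA per cell cannot be told apart.

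Most of the 32 genes, of which 3 were grouped as repair and checkpoint, had lower messenger RNA in cultures from deep wounds in both pigs. Of the 32 genes, 29 were lower on the deep array of each pig, while 30.7% of all named genes were lower in both and 30.7% higher in both. At least 2-fold lower in both pigs were 11, against 2.26% of named genes. These were PCNA, PCLAF, MCM3, MCM4, ORC1, RRM2, RFC5, RPA2, BRCA1, CHEK1 and TIPIN. MCM4 and BRCA1 are among them only through deep signals below the controls for absent transcripts. With such signals raised to the highest control of their array, 9 genes were at least 2-fold lower in both pigs, against 0.99% of named genes. Lower in both pigs by any amount were then 28, since MCM4 dropped out in pig 2. The share of named genes was not counted for that. The median difference, deep minus shallow on the log2 scale and averaged over the pigs, was -1.41, beside -0.01 for all named genes. Pig 1 gave -2.11 and pig 2 gave -0.70. The median was -0.78 when the shallow array of pig 1 was left out, and -2.02 when that of pig 2 was.

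By single-gene test only PCLAF passed. The test was limma over 14399 probesets with the pig as a block and Benjamini-Hochberg adjustment, at an adjusted p of 0.05. It called 0.104% of all probesets lower and 0.236% higher in deep cultures; MCM4 was too dim to enter it, so 31 of the 32 genes were tested. The other 30 had adjusted p values from 0.0771 to 0.906. At an unadjusted p under 0.05, 22 of the 31 were lower in deep, beside 6.92% of probesets.

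The groups seldom overlapped. Both deep arrays lay below both shallow arrays for 28 of the 32 genes, against 24.9% of named genes. MCM4 is among the 28 only through deep signals below the absent controls. Without the shallow array of pig 1, where epithelial markers were high, the condition is easier to meet and the count can only stay or rise. It was 28, against 35.5% of named genes. In pig 2, 29 genes were lower in deep, the same 29 as above, against 47.6% of named genes. That count is of signs only. It takes in differences near 0, such as FEN1 at -0.04, TYMS and ORC6 at -0.13 and POLA2 at -0.17. It also takes in MCM4, for which no fold can be given in pig 2. The part of epithelial cells in these counts was not tested. The plot of signal by array shows the order of the arrays gene by gene.

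**Figure D1:**
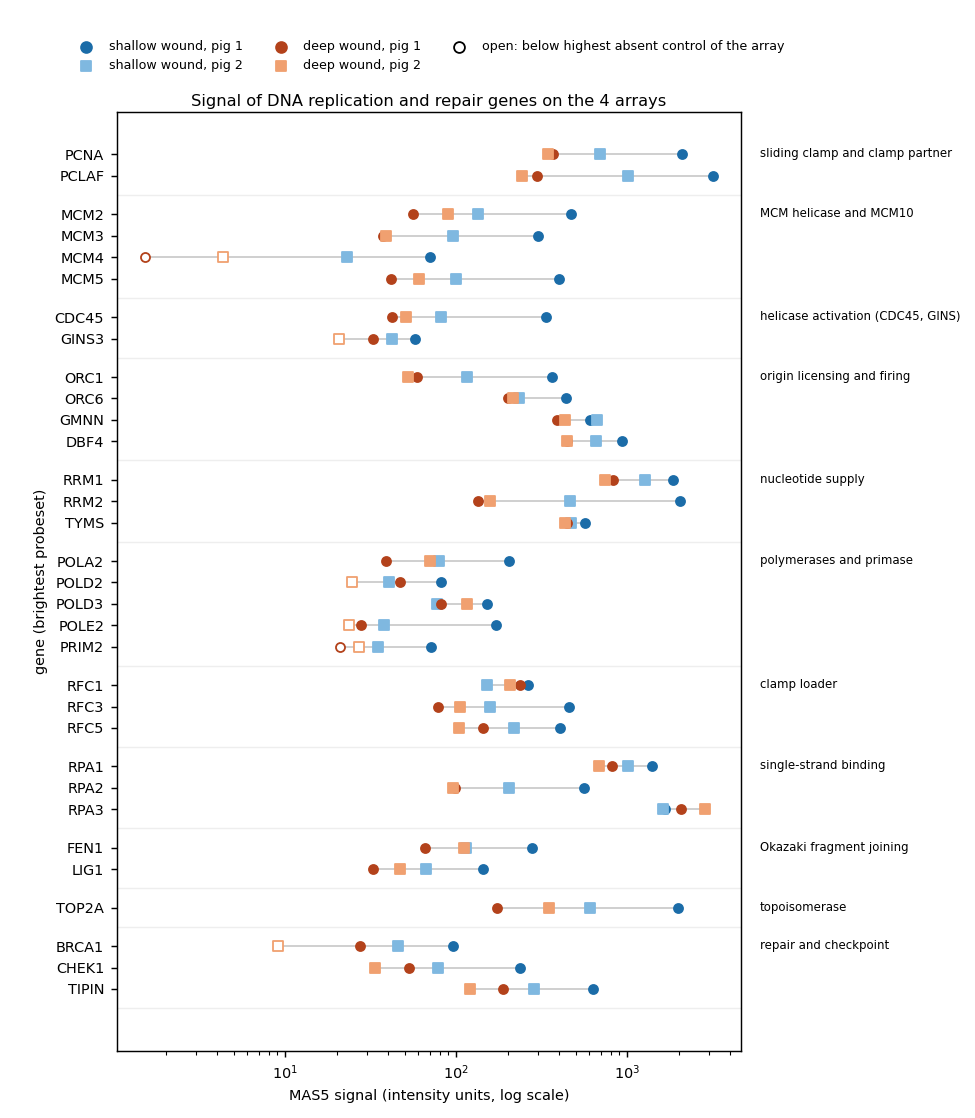
MAS5 signal in intensity units on a log axis for the 32 genes, 1 row per gene, grouped by role; circles are pig 1 and squares pig 2, blue is shallow and orange is deep, and open symbols lie below the highest absent-transcript control of their array. The shallow array of pig 1 is the rightmost point for 30 genes, and both deep arrays lie left of both shallow arrays for 28.

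Among genes that act at origins, ORC1, the largest subunit of the origin recognition complex, had the widest difference. Here and below, signals are given for pig 1 first and pig 2 second. ORC1 read 365 and 116 in shallow and 59.0 and 52.5 in deep, with deep minus shallow at -1.89 ± 0.43 on the log2 scale (SE; limma, adjusted p = 0.115). The deep arrays were alike and lay below both shallow arrays. DBF4, the activator of the kinase that fires origins, read 934 and 662 in shallow and 445 and 447 in deep (-0.82 ± 0.28). ORC6, the smallest subunit of the same complex, read 441 and 233 in shallow and 201 and 214 in deep (-0.63 ± 0.34). Its 2 deep arrays lay just under the shallow array of pig 2. GMNN, geminin, which blocks a second round of licensing by binding CDT1, was the only gene of the 32 that was highest on the shallow array of pig 2. It read 608 and 664 in shallow and 387 and 436 in deep (-0.63 ± 0.27), a difference of nearly the same size in both pigs, -0.65 and -0.61. All 4 origin genes among the 32 were lower in deep in both pigs, with a median of -0.72, and none passed the test.

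The MCM proteins form the ring of the replicative helicase. MCM2 read 468 and 135 in shallow and 55.6 and 89.1 in deep (-1.84 ± 0.55). MCM3 read 302 and 96.2 in shallow and 37.5 and 38.7 in deep (-2.16 ± 0.47; limma, adjusted p = 0.102). MCM5 read 402 and 99.5 in shallow and 41.6 and 60.7 in deep (-1.99 ± 0.57). In each of these the shallow array of pig 1 stood 3.13 to 4.04 times above that of pig 2, and both deep arrays were lowest. MCM4 read 70.2 and 23.0 in shallow and 1.52 and 4.31 in deep. Both deep values lay below the absent controls, whose highest signals there were 21.8 and 30.9, so MCM4 is known only to be at least 1.55-fold lower over both pigs. In pig 1 it was at least 3.22-fold lower; in pig 2 no fold can be given, since the shallow signal itself was below the control of the deep array. By measured signals the 4 helicase genes on the array were lower in both pigs, by a median of -3.17 in pig 1 and -1.01 in pig 2. Both medians take in MCM4 at deep signals below the controls, and in pig 2 it cannot be counted as lower. The other helicase genes in pig 2 were at -0.60 for MCM2, -1.32 for MCM3 and -0.71 for MCM5.

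CDC45 and GINS bind the MCM ring and switch it on. CDC45 read 334 and 81.6 in shallow and 42.3 and 50.7 in deep (-1.84 ± 0.54). Its difference was -2.98 in pig 1 and -0.69 in pig 2. GINS3, a subunit of the GINS complex, read 57.3 and 42.4 in shallow and 32.5 and 20.7 in deep (-0.92 ± 0.45). The last value was below the absent controls, so GINS3 was at least 1.37-fold lower in pig 2 and at least 1.55-fold over both pigs.

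PCNA is the sliding clamp that holds the polymerases on DNA, and PCLAF binds to it. PCLAF read 3165 and 1011 in shallow and 297 and 242 in deep, which is 2088 ± 1524 in shallow and 270 ± 39.1 in deep (SD, n = 2). It fell 10.6-fold in pig 1 and 4.18-fold in pig 2, or by -2.74 ± 0.36 on the log2 scale (limma, adjusted p = 0.0376). The size rested on the shallow arrays: it was -1.91 without that of pig 1 and -3.56 without that of pig 2. The call was lost without the deep array of pig 1 (limma, adjusted p = 0.248) or of pig 2 (0.933), fits that have no pig block. It was also lost with all 4 arrays and no block (0.173), without the filter on dim probesets (0.21), without the variance trend (0.135), with the mean of both PCLAF probesets (0.131) and with the actin ratio as covariate (1), and over all alternatives the adjusted p ran from 3.46e-08 to 1. PCNA read 2092 and 696 in shallow and 371 and 344 in deep (-1.75 ± 0.37; limma, adjusted p = 0.0973). For both genes the deep arrays were alike while the shallow arrays differed about 3-fold, by 3.13 for PCLAF and 3.01 for PCNA.

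The clamp is opened and closed around DNA by replication factor C, of which 3 of 5 subunits were on the array. RFC3 read 460 and 158 in shallow and 78.5 and 105 in deep (-1.57 ± 0.47). RFC5 read 404 and 218 in shallow and 144 and 104 in deep (-1.27 ± 0.31), and was at least 2-fold lower in both pigs. For RFC1, the large subunit, signals of 263 and 151 in shallow and 235 and 207 in deep overlapped between depths (0.15 ± 0.32; limma, adjusted p = 0.881).

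Of the 5 polymerase and primase genes among the 32, 4 were lower in deep in both pigs and none passed the test. POLE2, the second subunit of the leading-strand polymerase epsilon, read 170 and 37.8 in shallow and 27.9 and 23.6 in deep (-1.64 ± 0.54). POLA2, the B subunit of polymerase alpha, read 204 and 79.5 in shallow and 39.1 and 70.7 in deep (-1.28 ± 0.53). PRIM2, the large primase subunit that makes the RNA primer together with PRIM1, read 71.3 and 34.9 in shallow and 20.9 and 27.1 in deep. The shallow array of pig 1 was highest in each, and both deep arrays lay below both shallow arrays. Both deep values of PRIM2 were below the absent controls, so it was at least 1.92-fold lower over both pigs, and POLE2 on the deep array of pig 2 was likewise below them, which leaves at least 2.73-fold. The polymerase delta subunits POLD2 and POLD3 overlapped between depths, while POLD4, of a further list, is described below. POLD2 read 82.0 and 40.2 in shallow and 47.0 and 24.5 in deep, the last again below the controls. POLD3 read 152 and 77.2 in shallow and 81.5 and 115 in deep (-0.16 ± 0.43; limma, adjusted p = 0.906), lower in deep in pig 1 and higher in pig 2.

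Replication protein A coats single-stranded DNA at the fork, and 2 of its 3 subunits were lower in deep in both pigs. RPA2 read 557 and 204 in shallow and 98.0 and 96.1 in deep (-1.80 ± 0.40; limma, adjusted p = 0.104). RPA1, the large subunit that binds DNA, read 1400 and 1009 in shallow and 814 and 687 in deep (-0.67 ± 0.27). RPA3, the smallest subunit, read 1677 and 1623 in shallow and 2075 and 2861 in deep (0.56 ± 0.28; limma, adjusted p = 0.429). It was the only gene of the 32 that was higher in deep in both pigs, and both its deep arrays lay above both shallow arrays. Over 14 alternative settings its difference ran from 0.09 with the actin ratio as covariate to 0.79 without the deep array of pig 1. Most of these settings could not turn its sign. The block, pairing, filter, trend and floors leave the difference as it is. Since the depths did not overlap, leaving out 1 array cannot reverse it either. Whether the subunits differ from each other in their response was not tested.

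FEN1 trims and LIG1 seals the short fragments of the lagging strand. LIG1 read 144 and 66.2 in shallow and 32.6 and 47.1 in deep (-1.32 ± 0.49). FEN1 read 278 and 114 in shallow and 65.6 and 111 in deep (-1.06 ± 0.49). For FEN1 nearly all of the difference came from pig 1, at -2.08, with -0.04 in pig 2. TOP2A, the topoisomerase that untangles copied chromosomes, read 1979 and 606 in shallow and 174 and 351 in deep (-2.15 ± 0.55; limma, adjusted p = 0.152). It was 11.3-fold lower in pig 1 and 1.72-fold lower in pig 2.

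All 3 nucleotide supply genes among the 32 were lower in deep in both pigs, by amounts from -2.75 to -0.24. RRM2, the small subunit of ribonucleotide reductase and the one whose level limits the enzyme in S phase, read 2051 and 466 in shallow and 134 and 157 in deep. Its log2 difference, -2.75 ± 0.50 (limma, adjusted p = 0.0771), was about that of PCLAF, with a 15.3-fold lower level in pig 1 and a 2.97-fold lower level in pig 2. RRM1, the large subunit of the same enzyme, read 1865 and 1274 in shallow and 825 and 742 in deep (-0.98 ± 0.27). TYMS, thymidylate synthase, read 567 and 471 in shallow and 446 and 431 in deep (-0.24 ± 0.27; limma, adjusted p = 0.764). Its difference was smaller than its standard error.

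The 3 genes grouped as repair and checkpoint were all at least 2-fold lower in deep in both pigs by their measured signals. In the further lists described below this was rarer. It held for 1 of 10 homologous recombination genes and 0 of 12 mismatch and excision repair genes. It also held for 0 of 7 end joining genes and 0 of 6 checkpoint genes, against 2.26% of named genes. CHEK1, the kinase that restrains the cell cycle when forks stall, read 235 and 78.3 in shallow and 52.8 and 33.5 in deep (-1.69 ± 0.40; limma, adjusted p = 0.131). TIPIN, a fork protection factor, read 631 and 286 in shallow and 188 and 120 in deep (-1.50 ± 0.30; limma, adjusted p = 0.0890). BRCA1, which acts in repair by homologous recombination, read 95.8 and 45.5 in shallow and 27.3 and 9.04 in deep. In all 3 the deep array of pig 2 was the lowest. For BRCA1 that value was below the absent controls, which leaves BRCA1 at least 1.47-fold lower in pig 2 and, taking both pigs, at least 2.27-fold. With the actin ratio as covariate in place of the pig, all 3 differences were small. CHEK1 was at -0.45, TIPIN at -0.42 and BRCA1 at -0.02, against -1.69, -1.50 and -2.07 in the main setting. The median of the 32 genes moved less, from -1.41 to -0.97. Some genes differed more with this covariate, such as TOP2A at -2.61 against -2.15. The cause was not tested.

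The 2 pigs had the same direction for 30 of the 32 genes, all but POLD3 and RFC1. The shallow array of pig 1 was the highest of the 4 for 30 of the 32 genes, against 33.8% of named genes. Deep was lower in pig 1, and by more than in pig 2, for 29 genes, against 40.3% of named genes. At least 2-fold lower were 24 genes in pig 1, against 12% of named genes, and 12 genes in pig 2, against 7.44%. The 12 in pig 2 include MCM4, GINS3 and BRCA1 through signals below the absent controls; with those raised to the controls, a count made after seeing the data, 9 were left, against 2.54% of named genes. With 1 array per depth and pig, the difference between the pigs could not be tested.

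**Figure D2:**
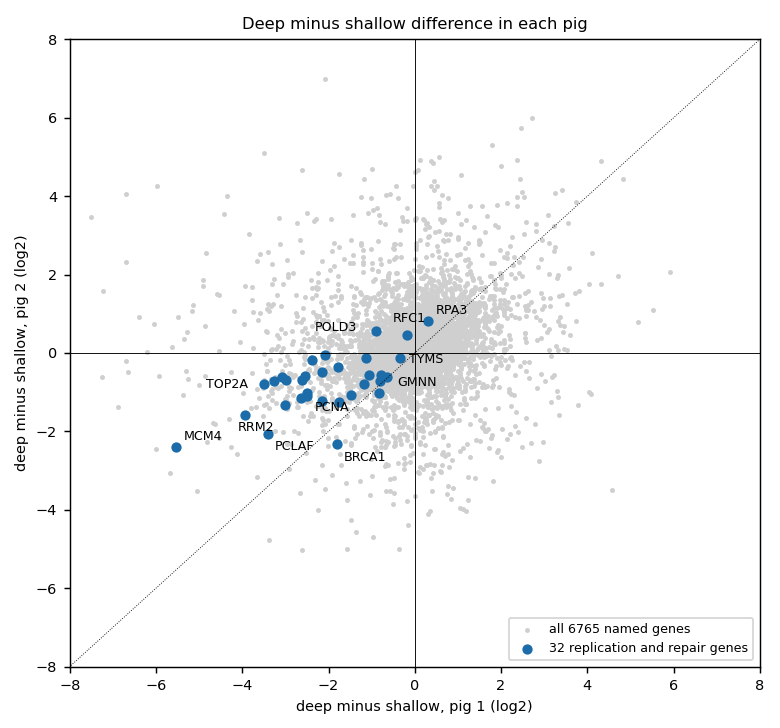
Deep minus shallow log2 difference in pig 1 (horizontal) and pig 2 (vertical) for all 6765 named genes in grey and the 32 replication and repair genes in blue; the dotted line marks equal differences. Below 0 on both axes lie 29 of the 32, mostly above the dotted line because their difference was larger in pig 1, and RPA3 lies above 0 on both.

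The larger differences in pig 1 lay with its shallow array. Between the pigs, pig 2 minus pig 1, the median log2 difference of the 32 genes was -1.21 on the shallow arrays and 0.02 on the deep arrays, while for all named genes it was -0.02 and 0.06. On the shallow arrays 31 genes were higher in pig 1, and 21 of them at least 2-fold, which held for 9.64% of named genes. The deep arrays differed at least 2-fold in either direction for 3 of the genes, against 15.4% of named genes. The exceptions were TOP2A and MCM4, higher in pig 2, and BRCA1, lower in pig 2, and MCM4 was below the absent controls on both.

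**Figure D3:**
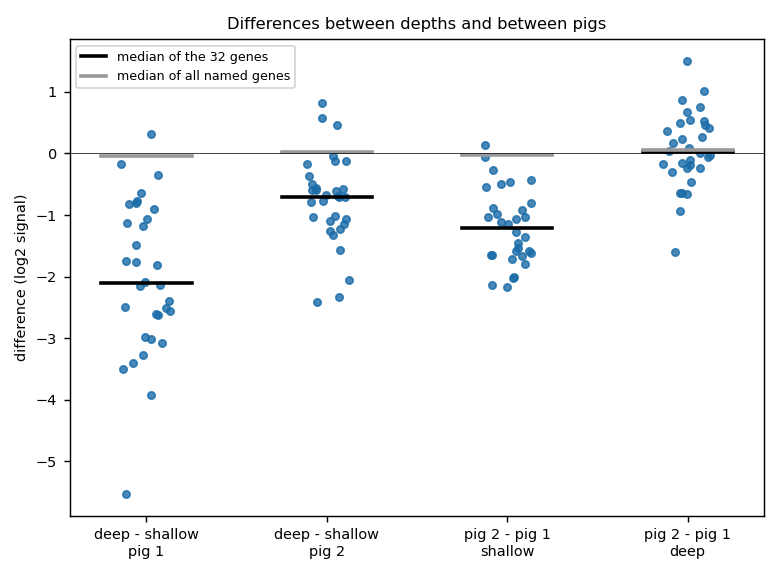
Log2 differences of the 32 genes (points) between depths in each pig and between pigs at each depth; black bars are the medians of these genes and grey bars those of all named genes. The medians are -2.11 and -0.70 between depths, -1.21 between the shallow arrays and 0.02 between the deep arrays.

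Signals below the absent controls were few and lay on the deep arrays. The 23 probesets for transcripts that should be absent had highest signals of 14.8 and 13.6 in shallow and 21.8 and 30.9 in deep. Of 128 member values, 8 were below these, 2 on the deep array of pig 1 and 6 on that of pig 2. They belonged to 6 genes, MCM4, GINS3, POLD2, POLE2, PRIM2 and BRCA1; at least 1 such value was found for 24.6% of named genes. With every such value raised to its array's highest control, the median difference of the 32 genes was -1.28.

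More than 1 probeset was present for 12 of the genes, with 15 further probesets in all. Of these, 9 were bright enough to test, and 4 of the 9 were lower in deep in both pigs. The second probesets of CHEK1 (-2.32 ± 0.45), POLE2 (-1.86 ± 0.59) and RFC3 (-1.19 ± 0.43) gave differences near those of the first (-1.69, -1.64 and -1.57), and that of POLD3 again had opposite signs in the pigs. In the second CHEK1 probeset 1 deep signal and in that of POLE2 both were below the absent controls. Other probesets gave other values. The second of CDC45 read 121 and 31.1 in shallow and 44.8 and 34.1 in deep (-0.65 ± 0.50), and 1 of MCM5 read 74.7 and 30.8 in shallow and 42.1 and 41.5 in deep (-0.20 ± 0.48). In both, the deep arrays fell between the shallow arrays. A second MCM2 probeset (-0.35 ± 0.62) had opposite signs in the pigs, -1.54 and 0.84, with 1 deep signal below the absent controls. The third MCM2 probeset, at 0.41, was too dim to test. With the mean of its probesets MCM2 was at -0.59. A further DBF4 probeset also had opposite signs, -0.53 and 0.05, while another was lower in both pigs, at -0.69 and -0.52. The second FEN1 probeset read 31.3 and 23.8 in shallow and 1.06 and 6.03 in deep, both deep signals below the controls, and was too dim to test. The second PCLAF probeset was also too dim to test, at 19.5 and 16.1 in shallow and 13.4 and 13.3 in deep.

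Other genes of the pathway, taken from 8 lists, were also more often lower than higher in deep. Of 170 genes listed, 79 were on the array, and 50 of them were lower in both pigs and 8 higher in both, beside 30.7% of named genes each way. Their median difference was -0.42. Of the 79, 74 were bright enough to test. By limma 0 of them passed the adjusted threshold, and at an unadjusted p under 0.05 there were 24 lower and 2 higher, beside 6.92% and 6.94% of probesets. No difference between these genes and the 32 above was tested. The medians of the lists below moved with single arrays. Without the shallow array of pig 1 they were -0.29 for other replication factors, -0.25 for other nucleotide metabolism, -0.48 for homologous recombination, -0.05 for end joining, -0.25 for the checkpoint list and -0.42 for the E2F list. Without the shallow array of pig 2 the same 6 lists were at -0.76, -0.95, -1.67, -0.26, -1.26 and -0.30. Without the deep array of pig 1, end joining was at -0.22 and the E2F list at -0.39, and without that of pig 2 chromatin assembly was at -1.06.

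Other replication factors had a median of -0.48 over 14 genes, with 9 lower in both pigs. CLSPN, claspin, which helps activate CHEK1 at stalled forks, read 241 and 59.8 in shallow and 22.8 and 28.1 in deep, the last below the absent controls, so at least 4.52-fold lower. GINS4 read 180 and 146 in shallow and 69.6 and 63.0 in deep (-1.29 ± 0.34), with the deep arrays below both shallow ones. POLD4, the smallest subunit of polymerase delta, went the other way. It read 247 and 446 in shallow and 604 and 748 in deep (1.02 ± 0.29; limma, adjusted p = 0.179), and is the only gene of its list that was higher in both pigs, named here after its values were seen.

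Chromatin assembly genes, which wrap new DNA in histones, had a median of -0.50 over 7 genes, with 5 lower in both pigs. The histone chaperone ASF1B read 146 and 25.1 in shallow and 22.5 and 9.59 in deep, the last below the controls. ASF1B was 6.51-fold lower in pig 1. In pig 2 no fold can be given, since the shallow signal was itself under the control of the deep array. The histone acetyltransferase HAT1 read 935 and 469 in shallow and 317 and 300 in deep (-1.10 ± 0.32). For HAT1 the depths did not overlap. Other nucleotide metabolism had a median of -0.57 over 16 genes, with 10 lower in both. PPAT, the first enzyme of purine synthesis, read 32.4 and 32.3 in shallow and 10.8 and 0.680 in deep, both deep values below the controls, so at least 1.25-fold lower. DCTPP1, which breaks down dCTP and its modified forms, read 313 and 77.6 in shallow and 52.9 and 63.3 in deep (-1.43 ± 0.53).

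Homologous recombination and Fanconi anemia genes, which mend broken and cross-linked DNA, had a median of -1.07 over 10 genes, with 9 lower in both pigs. RAD54L, a motor protein of homologous recombination, read 96.1 and 43.9 in shallow and 15.5 and 26.0 in deep, both deep values below the controls, so at least 2.50-fold lower.

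Mismatch, base and nucleotide excision repair had a median of -0.34 over 12 genes, with 6 lower and 3 higher in both pigs. POLB, the base excision repair polymerase, read 459 and 352 in shallow and 267 and 188 in deep (-0.85 ± 0.28). XPC, which recognises bulky lesions, read 254 and 524 in shallow and 606 and 676 in deep (0.81 ± 0.31), higher in both pigs. End joining and translesion synthesis had a median of -0.12 over 7 genes, with 3 lower in both pigs. REV1, which inserts bases opposite damaged sites, was at -0.33 ± 0.42 and POLI, another translesion polymerase, at -0.23 ± 0.43, each within its standard error.

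Checkpoint kinases and clamps had a median of -0.80 over 6 genes. ATRIP, which brings the kinase ATR to single-stranded DNA, read 79.6 and 62.4 in shallow and 33.8 and 37.6 in deep (-0.98 ± 0.42). RAD1, of the checkpoint clamp, read 184 and 77.7 in shallow and 77.4 and 57.5 in deep (-0.84 ± 0.38); its depths all but touched. The E2F, RB and S-phase cyclin list had 4 genes lower and 1 higher in both pigs, with a median of -0.19 over 7 genes. CCNA2, cyclin A2 of S phase, read 180 and 52.6 in shallow and 17.3 and 19.8 in deep, both deep values below the controls, so at least 3.74-fold lower. MYBL2, a cell-cycle transcription factor, read 1211 and 337 in shallow and 154 and 146 in deep (-2.09 ± 0.42; limma, adjusted p = 0.0894), with the deep arrays again alike and the shallow arrays apart.

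**Figure D4:**
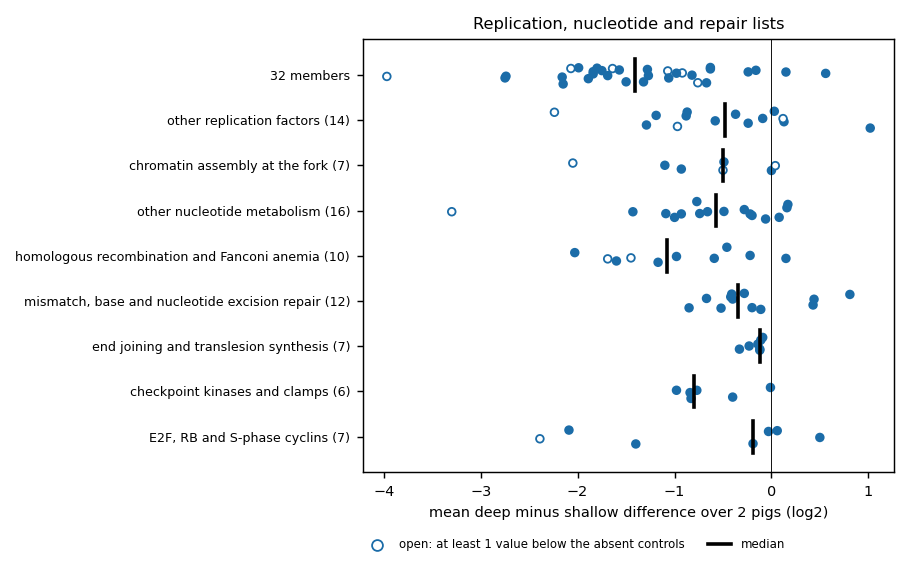
Mean deep minus shallow log2 difference over both pigs for the 32 genes and for the genes of 8 further lists, with the number on the array in brackets; each point is a gene, open points have at least 1 value below the absent controls, and black bars are medians. The median is -1.41 for the 32 genes and between -1.07 and -0.12 for the lists.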

How the data were processed

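The deposited table holds 1 MAS5 signal intensity per probeset and array on a linear scale; the authors' tools were GCOS 1.0 and MAS5, according to what is listed per the submitters' processing notes. The scaling target is not given in the sources used here. Every array had a trimmed mean of 250.1 (2% left out at each end). Signals were set to at least 1 and taken to log2, 124 control probesets were left out of 24123, and the 14399 probesets whose mean log2 signal reached the 40th percentile (27.1 in signal) were tested. Titles name each sample's partner by number; read as the order of listing, they pair the arrays by pig. Across probesets, deviations of the same pig's arrays from their depth mean correlated at -0.01, so the pairing rests on the design. Deep and shallow were compared with limma 3.58.1 in R 4.3.3 (trend, pig as block). The block leaves 1 residual degree of freedom, to which moderation added 6.88; tested on simulated data, the fit made more false calls than its threshold allows. An exact two-sided permutation test of 2 against 2 arrays cannot go below 0.333. Nothing says how many cultures lie behind an array, so p-values rest on arrays, and precision is limited by how few arrays there are. Most of the degrees of freedom come from moderation. Each SE and p-value therefore draws largely on the variance of other probesets. They can understate how far the 2 pigs differ for a gene. An "at least" fold uses, per array, the higher of the signal and the highest of 23 absent-transcript controls.

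Genes were named through the platform annotation (10069 probesets with 1 symbol, 198 with several, 13732 with none); no sequences are shown. Members and lists were chosen with earlier results of these data known. All members on the array are named, with signals for those past the threshold, the 3 with the largest difference in each role, and PCNA, MCM2, RRM2, TYMS, TOP2A and BRCA1; signals of ORC6, GMNN, POLD2 and POLD3 were added after they were seen. From each further list the 2 largest are named, except 1 gene that is not reported here. Alternatives covered the block, pairing, filter, scaling, floor, trend, probeset choice, actin ratio and each array left out.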

Additional observations from a re-analysis of the deposited data

Results flagged for a closer look

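For 2 of the 32 genes the pigs pointed in opposite directions, which was not tested, since there was 1 array per depth and pig. POLD3, a subunit of polymerase delta, differed by -0.90 in pig 1 and 0.57 in pig 2, deep minus shallow on the log2 scale, and its second probeset did the same. RFC1, the large clamp loader subunit, differed by -0.17 in pig 1 and 0.46 in pig 2. Both read higher on the shallow array of pig 1, 152 and 263, than on that of pig 2, 77.2 and 151.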

How the results depend on the processing

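The median difference of the 32 genes stayed negative in all 11 alternatives for which it was taken, from -2.02 to -0.78. The crossed pairing is among these and cannot move it. In the 6 that compared arrays in pairs, 27 to 29 genes were lower in both pairs. The crossed pairing, with 28, is among these 6 and takes the other pig's array as partner. The median of all named genes lay between -0.06 and 0.11, with -0.01 in the main setting; the highest came from raising signals to the absent controls. The count of genes called lower, 1 with the pig as a replicate block, was less stable. It was 0 with no block, no filter on dim probesets or no variance trend, with the mean of a gene's probesets and with the actin ratio as covariate in place of the pig. At an unadjusted p under 0.05 these fits had, in that order, 22, 22, 22, 20 and 0 lower. With the crossed pairing it was 4 (PCLAF, MCM2, RRM2 and TOP2A). With 1 array left out and no block it ranged from 0 to 22. It was 0 without either deep array (12 at an unadjusted p under 0.05 in each), while leaving out shallow pig 1 gave 2 and leaving out shallow pig 2 gave 22. Over all probesets the calls were 49 in the main setting, 202 crossed and 96 with quantile normalization. They were 20 with the mean of probesets, 3 without the trend, and 0 without the block, without the filter, with the actin ratio or without either deep array. They were 172 without shallow pig 1 and 1597 without shallow pig 2. The difference of POLD2 was 0.59 with the actin ratio as covariate and that of TYMS 0.17 with the mean of probesets. With 1 array left out POLD3 ranged from -0.65 to 0.33 and RFC1 from -0.26 to 0.55. The causes were not tested. Probesets below the absent controls have only bounds.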
